A study of Mus musculus with 25 samples.

Results

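The tumour necrosis factor (TNF) superfamily ligands and receptors were examined in mouse *soleus*. The members were the genes whose symbol begins with Tnfsf or Tnfrsf followed by a digit, which gave 32 of the 52636 genes in the count table: 11 ligands, 20 receptors and 1 antisense transcript, *Tnfsf13os*. The rule used names only, but the family itself was selected on results of these data, among them the fall of *Tnfsf10* after exercise. The values of the exercise contrast are therefore given as a description of the members and without p-values, and tests are reported for genotype, for the interaction of genotype and exercise, and for sex.

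RNA was sequenced from the *soleus* of 25 mice, 1 library per mouse, to compare the response to acute exercise with and without *Dnmt3a*, a *de novo* DNA methyltransferase, in muscle fibers. All mice were C57BL/6, 12 weeks old and carried *Dnmt3a* flox/flox. The mD3AKO mice also carried *mCK-Cre*, a Cre recombinase under the muscle creatine kinase promoter that is switched on late in muscle differentiation and also acts in heart, so that the deletion is not directed at the other cells of the muscle, whereas the WT mice carried no Cre. Exercised mice ran on a treadmill for 30 minutes and were killed 60 minutes later (7 WT and 6 mD3AKO mice), and rested mice were kept on a sham treadmill (5 WT and 7 mD3AKO mice). There were 13 males and 12 females.

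Ligands of the TNF superfamily are mostly membrane proteins of trimeric form that are held on or shed from the surface of immune, stromal and endothelial cells. Their receptors signal through TRAF adaptors to NF-kB and MAP kinases, and those with a death domain can also recruit caspase-8 and start apoptosis, while decoy receptors bind ligand without signalling. In muscle the family is best known for TNF itself, which promotes wasting, for TWEAK and its receptor Fn14, which is induced by injury and denervation, and for RANK and its ligand.

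The libraries held between 22671457 and 37431801 reads on genes (median 32189360), so that 1 CPM, the unit of level used here (counts scaled to TMM-normalised library sizes), corresponded to about 32.2 reads at the median depth. *Dnmt3a* was at 116 ± 13.3 CPM (SD, n = 12) in WT mice and at 40.9 ± 5.86 CPM (SD, n = 13) in mD3AKO mice, without overlap. The 8 muscle fiber markers examined, among them *Acta1*, *Ckm* and *Myh7*, summed to between 69500 and 94530 CPM in every library. Mouse 15, a rested male mD3AKO mouse, had the fewest reads and 39.5% of them on 3 ribosomal RNA genes, against 13.0% or less in each of the other libraries. Mouse 19, an exercised male mD3AKO mouse, held the highest level of its group for several receptors and of the summed immune cell markers (94.3 CPM, against 19.0 to 59.2 CPM in the other 5 exercised mD3AKO mice). Values without mouse 15 or mouse 19 are given beside several of the results. Bulk muscle holds fibers, vessels, immune cells and fibroblasts, and fewer cells of a type and less RNA per cell cannot be told apart in it.

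Promoter sequences of the members whose RNA changed with exercise are shown so that their make-up can be set beside the responses. They are from RefSeq (GRCm38.p6, the strand of the gene), which held the 250 bases before a start site for 24 of the 32 members and for 4 of the 5 changed members. Motifs were searched in these whole windows, and the sequences printed leave out bases that lie inside the gene as the count table gives it. *Tnfsf10* lies on the plus strand (chr3:27316827-27317027), as do *Tnfsf13b* (chr8:10006217-10006466), *Tnfrsf25* (chr4:152115684-152115933) and *Tnfrsf11a* (chr1:105780473-105780717). *Tnfrsf12a*, the most abundant member, lies on the minus strand (chr17:23677450-23677699) and is shown for comparison. Capitals mark matches to 2 of the 9 motifs searched on both strands: TGACG or CGTCA, the core of the cAMP response element, and CCGCCC or GGGCGG, the GC box.
Tnfsf10: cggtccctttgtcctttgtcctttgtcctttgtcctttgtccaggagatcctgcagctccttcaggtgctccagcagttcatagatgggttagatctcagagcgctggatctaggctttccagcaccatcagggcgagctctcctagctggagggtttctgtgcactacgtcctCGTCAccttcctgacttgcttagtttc
Tnfsf13b: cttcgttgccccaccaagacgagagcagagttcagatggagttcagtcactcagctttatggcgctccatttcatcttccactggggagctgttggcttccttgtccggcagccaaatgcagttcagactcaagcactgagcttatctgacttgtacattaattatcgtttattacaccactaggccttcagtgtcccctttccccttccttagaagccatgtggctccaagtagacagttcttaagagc
Tnfrsf25: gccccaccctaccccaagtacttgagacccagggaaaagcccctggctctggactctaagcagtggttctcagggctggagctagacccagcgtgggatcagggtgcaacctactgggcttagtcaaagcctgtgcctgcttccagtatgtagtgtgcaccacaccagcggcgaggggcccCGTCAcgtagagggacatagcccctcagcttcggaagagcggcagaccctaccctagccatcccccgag
Tnfrsf11a: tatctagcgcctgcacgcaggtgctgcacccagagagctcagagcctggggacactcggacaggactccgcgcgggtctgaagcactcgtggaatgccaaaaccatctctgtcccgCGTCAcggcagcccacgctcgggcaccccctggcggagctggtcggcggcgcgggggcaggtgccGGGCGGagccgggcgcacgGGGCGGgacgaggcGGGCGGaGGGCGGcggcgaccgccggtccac
Tnfrsf12a: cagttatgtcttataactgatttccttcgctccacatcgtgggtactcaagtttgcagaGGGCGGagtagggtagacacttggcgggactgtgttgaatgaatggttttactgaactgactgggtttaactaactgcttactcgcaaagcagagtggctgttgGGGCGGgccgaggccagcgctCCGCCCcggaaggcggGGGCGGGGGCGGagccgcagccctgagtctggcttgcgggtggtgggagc

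The core of the cAMP response element was found once in *Tnfsf10* (76 to 72 bases before the start site), once in *Tnfrsf25* (69 to 65 bases before it) and once in *Tnfrsf11a* (134 to 130 bases before it), and also in *Tnfrsf23*, whose RNA did not pass the test. It was present in 4 of the 24 member windows and in 17.7% of the 32817 RefSeq windows of 250 bases. The GC box was found 4 times in *Tnfrsf11a* and 5 times in *Tnfrsf12a*, and at least once in 10 of 24 member windows and 32.7% of all windows. The stretch before *Tnfrsf11a* was rich in G and C (73.9%), that before *Tnfsf13b* was not (48.8%) and held none of the motifs. The other 7 motifs, AP-1 (TGANTCA), the interferon element core (GAAANNGAA), the STAT element (TTCNNNGAA), the E-box (CACGTG), FOXO (GTAAACA), the TATA box (TATAAA) and NF-kB, had no match in these 5 stretches. FOXO was in 0 member windows and 3.16% of all windows, and NF-kB in 1, that of *Tnfrsf8*, and 4.99% of all windows. A match describes the letters and not a bound site.

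Receptors were the most abundant members (levels compared as CPM per kb of exon, mean over the 25 libraries). *Tnfrsf12a*, which encodes the TWEAK receptor Fn14, stood at 60.2 ± 46.7 CPM per kb (SD, n = 25) and above the next member in all 25 libraries. It was followed by *Tnfrsf1a* (TNF receptor 1) at 10.3 ± 1.49, *Tnfrsf19* (TROY) at 8.92 ± 1.02, *Tnfrsf21* (death receptor 6) at 6.33 ± 0.774 and *Tnfrsf1b* (TNF receptor 2) at 2.63 ± 0.651 CPM per kb. This order leaves out family genes with other names. Among such receptors, *Ltbr* had a mean of 13.9 CPM per kb in WT and in mD3AKO mice. Genotype means of *Relt*, *Eda2r* and *Fas* lay between 3.87 and 5.62, and those of *Ngfr* and *Cd40* between 0.282 and 0.356 CPM per kb. *Tnfrsf1a* and *Tnfrsf19* differed by less than the sum of their SDs, while *Tnfrsf19* was above *Tnfrsf21* and *Tnfrsf21* above *Tnfrsf1b* in 25 of 25 libraries. The 5 highest ligands were *Tnfsf12* (TWEAK) at 1.64 ± 0.219, *Tnfsf10* (TRAIL) at 1.21 ± 0.706, *Tnfsf9* (the 4-1BB ligand) at 0.264 ± 0.101, *Tnfsf13* (APRIL) at 0.173 ± 0.0718 and *Tnfsf18* (the GITR ligand) at 0.113 ± 0.0572 CPM per kb. In rested mice the mean of *Tnfsf10* was above that of *Tnfsf12* (1.91 against 1.73 CPM per kb). In exercised mice it was below (0.562 against 1.55 CPM per kb). From *Tnfsf12* down, each member and the next in the order differed by less than the sum of their SDs.

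**Figure D1:**
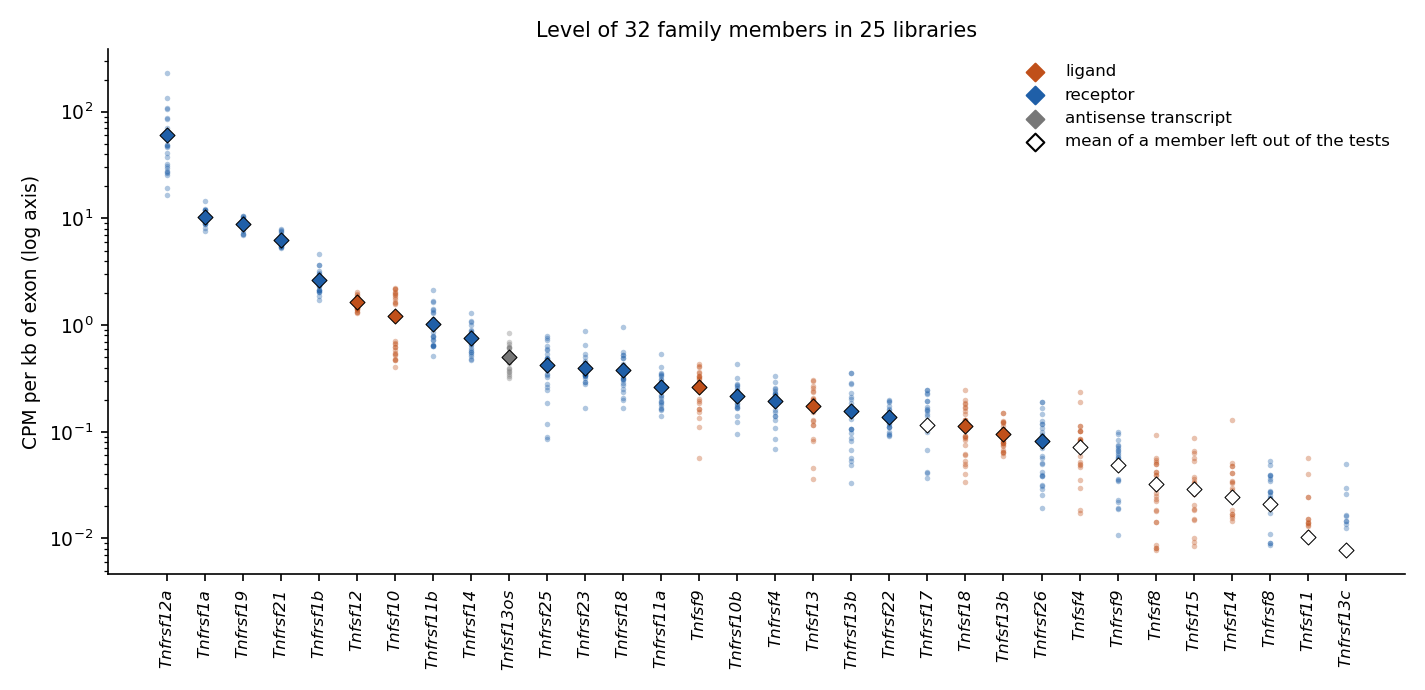
Level of the 32 members as CPM per kb of exon on a log axis, ordered by the mean over 25 libraries. Small points are libraries (those with 0 reads are not drawn), diamonds are means, and open diamonds mark the 9 members left out of the tests. *Tnfrsf12a* stands apart at the top with a mean of 60.2 CPM per kb, and *Tnfsf10* shows separate upper and lower clouds of libraries.

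Reads were too few for the main fit in 9 members, which were left out by the filter on low counts: *Tnfrsf13c*, *Tnfrsf17*, *Tnfrsf8*, *Tnfrsf9*, *Tnfsf11*, *Tnfsf14*, *Tnfsf15*, *Tnfsf4* and *Tnfsf8*. Their totals over 25 libraries ranged from 14 reads in *Tnfrsf13c* to 113 reads in *Tnfsf4*, and no library held more than 16 reads of any of them. The other 23 members, 6 ligands, 16 receptors and the antisense transcript, entered the fit over 16340 genes.

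After exercise, 5 of the 23 tested members had an adjusted p under 0.05 (edgeR's quasi-likelihood test over both genotypes), which is given here and below as a description of the members and not as evidence about the family. The ligands *Tnfsf10* and *Tnfsf13b* and the receptors *Tnfrsf26* and *Tnfrsf11a* were lower, and the receptor *Tnfrsf25* was higher. Of all genes tested, 10.4% passed, 5.7% upward and 4.69% downward, and since the family was selected on this contrast nothing is read from its share. The log2 fold changes were negative in 18 members and positive in 5, including all 6 ligands on the negative side, with a median of -0.10 against -0.0009 over all genes.

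*Tnfsf10*, which encodes TRAIL, a ligand that can kill cells through death receptors, had the largest log2 fold change among the 23 tested members. In WT mice at rest it was at 8.41, 9.76, 10.0, 10.6 and 11.7 CPM, and in exercised WT mice between 2.14 and 3.54 CPM (median 2.75). In mD3AKO mice it ranged from 8.32 to 11.5 CPM at rest (median 10.3) and from 2.55 to 3.71 CPM after exercise (median 3.16). Each of the 13 exercised mice lay below each of the 12 rested mice, in males and females alike. The mean decreased by 72.4% in WT and by 68.5% in mD3AKO mice, and the log2 fold change over both genotypes was -1.76 ± 0.08 (SE). It was -1.77 without mouse 15 and -1.78 without mouse 19.

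The genes of the receptors that bind TRAIL did not pass. *Tnfrsf10b*, the death receptor of TRAIL in the mouse, was at 1.17 ± 0.358 CPM in rested mice (SD, n = 12) and at 1.21 ± 0.393 CPM in exercised mice (SD, n = 13), with a log2 fold change of 0.03 ± 0.18 (SE). The decoy receptor genes *Tnfrsf22* and *Tnfrsf23* had log2 fold changes of -0.07 ± 0.14 and 0.18 ± 0.16. These decoy receptor genes share sequence, with 38.3% of the 31-base words of *Tnfrsf22* and 26.7% of those of *Tnfrsf23* also found in other transcripts, mostly each other's, so that their counts can hold reads of one another. Of the 31-base words of *Tnfrsf10b*, 10.8% were also found in other genes, 2027 in number.

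*Tnfrsf26* stands next to those decoys on chromosome 7 (chr7:143607659-143628722, minus strand, mm10), 6.1 kb from *Tnfrsf22*, which in turn lies 16.1 kb from *Tnfrsf23*. In WT mice at rest it was at 0.124, 0.126, 0.382, 0.472 and 0.537 CPM and after exercise between 0.0627 and 0.300 CPM (median 0.165). In mD3AKO mice it was between 0.295 and 0.613 CPM at rest (median 0.377) and between 0.0997 and 0.181 CPM after exercise (median 0.131). The mD3AKO groups did not overlap, while in WT mice 2 rested males were as low as exercised mice, and each of the 13 exercised mice lay below the median of the rested mice. The log2 fold change was -1.35 ± 0.26 (SE). These levels rest on 2 to 24 reads per library, and 0.691% of its 31-base words occur in other genes.

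*Tnfsf13b* encodes BAFF, which keeps B cells alive. It was at 0.597, 0.708, 0.772, 0.846 and 1.04 CPM in rested WT mice and between 0.439 and 0.687 CPM in exercised WT mice (median 0.538). In mD3AKO mice the range was 0.557 to 1.03 CPM at rest (median 0.834) and 0.405 to 0.724 CPM after exercise (median 0.455). The ranges met, but 10 of 13 exercised mice lay below each rested mouse and 13 of 13 below the rested median. The log2 fold change was -0.60 ± 0.12 (SE), on 10 to 39 reads per library.

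The receptors of BAFF and its relative APRIL were scarce. *Tnfrsf13b* (TACI) was at 0.551 ± 0.237 CPM at rest (SD, n = 12) and 0.340 ± 0.246 CPM after exercise (SD, n = 13), and its log2 fold change of -0.73 ± 0.28 (SE) did not pass. It passed in 1 of 25 fits that left out 1 mouse, that without mouse 19, its highest exercised mouse at 1.02 CPM. *Tnfrsf13c*, the BAFF receptor proper, gave 13 reads in all rested and 1 read in all exercised libraries, and *Tnfrsf17* (BCMA) 52 and 25 reads, and neither entered the main fit. Without a filter on low counts *Tnfrsf13c* was called for exercise, on these 14 reads. The B cell marker *Cd79b* had a log2 fold change of -0.57 ± 0.22 (SE) that did not pass. The part of B cell number in the values of *Tnfsf13b* was not tested.

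*Tnfrsf25* encodes death receptor 3, which carries a death domain and binds TL1A. It was the only member with a positive log2 fold change to pass over both genotypes. Rested WT mice had 0.269, 0.556, 0.737, 0.856 and 1.10 CPM and exercised WT mice between 0.794 and 1.73 CPM (median 1.32). In mD3AKO mice it was between 0.197 and 0.924 CPM at rest (median 0.604) and between 0.966 and 1.80 CPM after exercise (median 1.17). The mD3AKO groups did not overlap, the WT groups overlapped in part, and 9 of 13 exercised mice were above each rested mouse. The log2 fold change was 1.04 ± 0.22 (SE). Its ligand *Tnfsf15* was not tested, with 45 reads in all rested and 32 in all exercised libraries.

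*Tnfrsf11a* encodes RANK, best known as the receptor that drives osteoclast formation. It was at 1.71, 1.76, 1.82, 1.88 and 2.08 CPM in rested WT mice and between 0.984 and 1.57 CPM in exercised WT mice (median 1.15), without overlap. The mD3AKO groups overlapped, with 0.839 to 3.19 CPM at rest (median 2.01) and 0.957 to 2.41 CPM after exercise (median 1.23). Mouse 15 was the lowest rested mouse, on 12 reads, and mouse 19 the highest exercised mouse. The log2 fold change was -0.50 ± 0.16 (SE), -0.55 ± 0.15 (SE) without mouse 15 and -0.62 ± 0.15 (SE) without mouse 19. The call was the weakest of the 5: it was made in 6 of 25 fits that left out 1 mouse, among them those without mouse 15 and without mouse 19. Osteoprotegerin, the soluble decoy of the same ligand (*Tnfrsf11b*), had a log2 fold change of -0.42 ± 0.19 that did not pass, and the ligand *Tnfsf11* (RANKL) was not tested, with 3 reads in all rested and 16 in all exercised libraries.

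**Figure D2:**
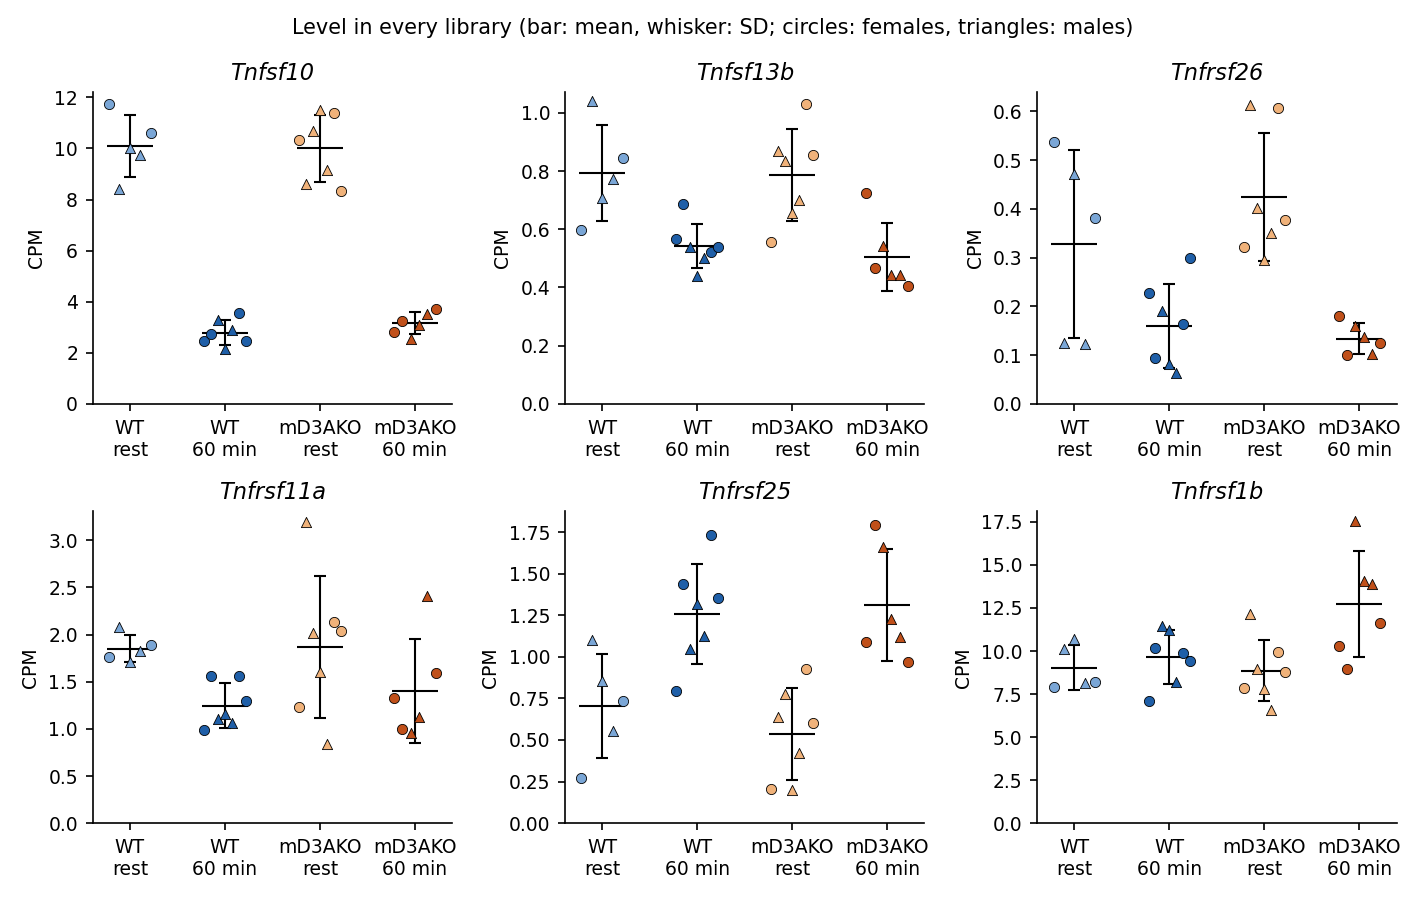
CPM of 6 members in every library of the 4 groups, with circles for females, triangles for males, a bar at the mean and whiskers of 1 SD. *Tnfsf10* separates rested from exercised mice completely (8.32 to 11.7 against 2.14 to 3.71 CPM), whereas *Tnfsf13b*, *Tnfrsf26*, *Tnfrsf11a*, *Tnfrsf25* and *Tnfrsf1b* overlap in at least 1 genotype.

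Within the genotypes, edgeR called 1 of 23 members in WT mice (3.59% of all genes) and 5 of 23 in mD3AKO mice (6.02% of all genes). *Tnfsf10* was called in both, with log2 fold changes of -1.85 ± 0.12 (SE) in WT and -1.67 ± 0.12 (SE) in mD3AKO mice. *Tnfrsf26* (-1.65 ± 0.36), *Tnfrsf25* (1.24 ± 0.30), *Tnfsf13b* (-0.65 ± 0.17) and *Tnfrsf1b* (0.51 ± 0.14) were called in mD3AKO mice. Their values in WT mice were -1.04 ± 0.37, 0.84 ± 0.32, -0.55 ± 0.18 and 0.10 ± 0.15. Without mouse 19, and likewise without mouse 17, the count in mD3AKO mice was 3, with *Tnfsf13b* and *Tnfrsf1b* lost, and without mouse 15 it was 4, with *Tnfrsf1b* lost. The call of *Tnfsf13b* was also lost without mouse 21 or 23, and that of *Tnfrsf1b* without mouse 2, 8, 10, 12 or 24. The log2 fold change of *Tnfsf13b* was -0.61 ± 0.18 (SE) without mouse 19 and lay between -0.78 and -0.57 when any 1 mouse was left out. That of *Tnfrsf1b* was 0.47 ± 0.15 (SE) without mouse 15 and 0.48 ± 0.15 (SE) without mouse 19, within a range of 0.40 to 0.61 when any 1 mouse was left out. Over the other settings it lay between 0.21 in females alone and 0.75 in males alone, with the call lost in 2 of 8, and the call of *Tnfsf13b* was lost in 4 of 7. In mD3AKO mice the call of *Tnfrsf25* was also lost in 2 of 8 other settings and that of *Tnfrsf26* in 2 of 7. Their log2 fold changes over these settings lay between 1.13 and 1.38 and between -1.70 and -1.65. Without mouse 1 the count in WT mice was 2, with *Tnfrsf18* added.

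These differences between the genotypes were tested by the interaction, which edgeR called in 0 of 23 members (0% of all genes), with 1 member under an unadjusted p of 0.05 and 0 calls by DESeq2. The lowest p was that of *Tnfrsf23* (difference of the responses 0.72 on the log2 scale, 95% interval 0.04 to 1.39, adjusted p = 1). Without mouse 19, the highest exercised mD3AKO mouse for this gene, it was 0.49 ± 0.30 (SE), and without mouse 7, the highest rested one, 0.96 ± 0.28 (SE). For *Tnfsf10* the responses differed by 0.19 (95% interval -0.16 to 0.53, adjusted p = 1), for *Tnfrsf25* by 0.40 (-0.49 to 1.30, adjusted p = 1) and for *Tnfrsf26* by -0.61 (-1.70 to 0.48, adjusted p = 1). The responses of *Tnfrsf1b* differed by 0.42 (95% interval -0.02 to 0.85, adjusted p = 1) and those of *Tnfsf13b* by -0.10 (-0.61 to 0.41, adjusted p = 1). For *Tnfrsf25*, *Tnfrsf26* and *Tnfrsf23* these intervals leave room for differences of more than 1 on the log2 scale.

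**Figure D3:**
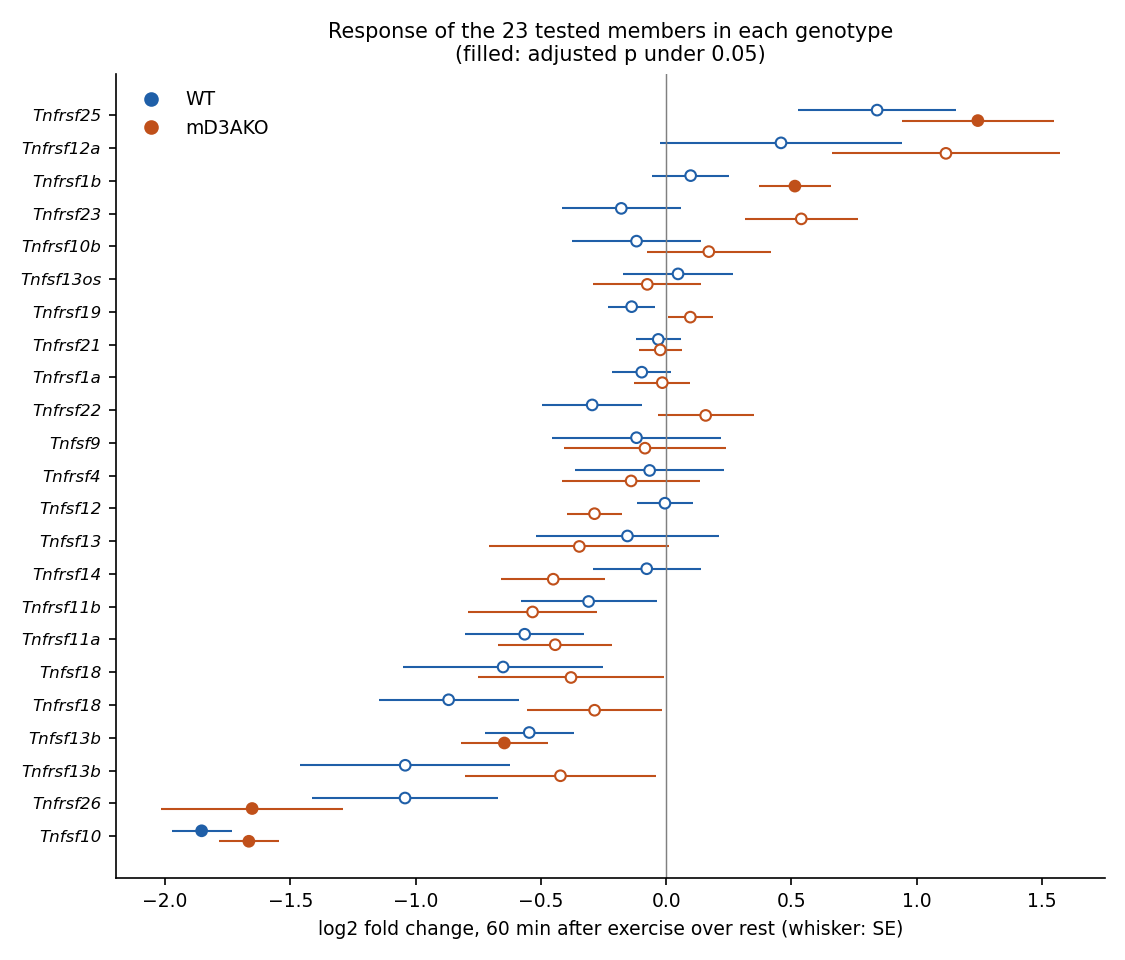
Log2 fold change of the 23 tested members 60 minutes after exercise over rest, in WT (blue) and mD3AKO (orange) mice from 1 fit, with whiskers of 1 SE and filled points where the adjusted p was under 0.05. *Tnfsf10* is filled in both genotypes (-1.85 and -1.67), and *Tnfrsf26*, *Tnfsf13b*, *Tnfrsf1b* and *Tnfrsf25* in mD3AKO mice.

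TNF itself signals through a pair of receptors. The gene of the first, *Tnfrsf1a*, which carries a death domain, was at 27.3 ± 3.84 CPM at rest (SD, n = 12) and 26.2 ± 3.95 CPM after exercise (SD, n = 13). Mouse 19 stood apart at 37.9 CPM, against 23.5 to 26.2 CPM in the other exercised mD3AKO mice. *Tnfrsf1b*, which lacks a death domain and is common on immune and endothelial cells, was at 7.91, 8.12, 8.22, 10.1 and 10.7 CPM in rested and between 7.11 and 11.5 CPM in exercised WT mice (median 9.86). In mD3AKO mice it was between 6.57 and 12.2 CPM at rest (median 8.80) and between 8.97 and 17.6 CPM after exercise (median 12.8). The 3 highest values belonged to the 3 exercised mD3AKO males, and the groups overlapped. Over both genotypes the log2 fold change was 0.31 ± 0.11 (SE) and did not pass. It passed in 3 of 8 other settings (DESeq2, sex as a term and blocks of mouse numbers as a term) and in 5 of 25 fits that left out 1 mouse, those without mouse 3, 4, 6, 7 or 13. The middle block of mouse numbers held all males and no females, so the terms for sex and for blocks are not separate checks.

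TWEAK and its receptor did not pass for exercise. *Tnfsf12* (TWEAK) was at 2.62 ± 0.302 CPM at rest (SD, n = 12) and 2.34 ± 0.310 CPM after exercise (SD, n = 13), a log2 fold change of -0.15 ± 0.08 (SE). *Tnfrsf12a* was the most variable abundant member. Rested WT mice had 16.0, 29.8, 30.8, 46.6 and 83.4 CPM and exercised WT mice between 24.7 and 129 CPM (median 46.2). Rested mD3AKO mice ranged from 18.4 to 103 CPM (median 35.9) and exercised mD3AKO mice from 26.8 to 221 CPM (median 71.7), the highest being mouse 19. The log2 fold change of 0.79 ± 0.33 (SE) did not pass, and it was 0.74 ± 0.34 (SE) without mouse 15 and 0.54 ± 0.31 (SE) without mouse 19. Without mouse 2, the rested mD3AKO female at 103 CPM, it was 0.98 and passed, as did the value in males alone given below.

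By sex, rested males had 18.4 to 46.7 CPM of *Tnfrsf12a* (median 29.8, n = 7) and exercised males 44.8 to 221 CPM (median 58.3, n = 6). Rested females had 16.0 to 103 CPM (median 39.9, n = 5) and exercised females 24.7 to 129 CPM (median 54.9, n = 7). The male groups overlapped only between 44.8 and 46.7 CPM and the female groups almost throughout. Fitted alone, males gave a log2 fold change of 1.28 ± 0.27 (SE) and females 0.10 ± 0.51 (SE). Males without mouse 19, a subset chosen after seeing the data, gave 0.96 ± 0.21 (SE). The difference between the sexes was 1.18 on the log2 scale (95% interval -0.10 to 2.46, adjusted p = 1, edgeR), so a difference was not shown.

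**Figure D4:**
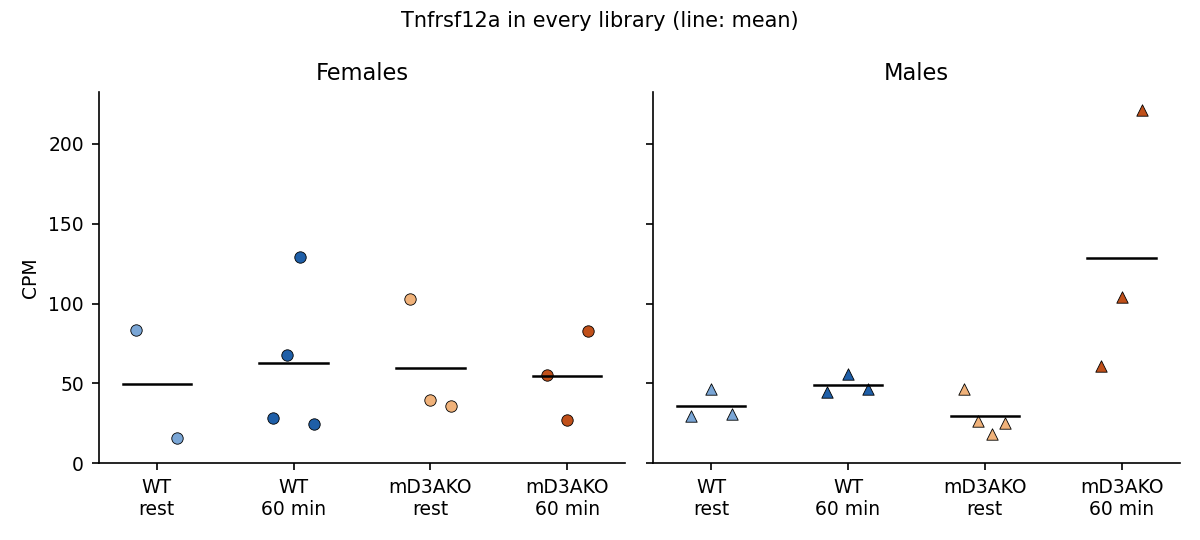
CPM of *Tnfrsf12a* in every library by group, females on the left and males on the right, with a line at each mean. Rested males lie at 18.4 to 46.7 CPM and exercised males at 44.8 to 221 CPM, rested females at 16.0 to 103 CPM and exercised females at 24.7 to 129 CPM, and a difference between the sexes was not shown.

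Among the other tested receptors, *Tnfrsf19* was at 42.4 ± 3.99 CPM at rest (SD, n = 12) and 42.1 ± 5.69 CPM after exercise (SD, n = 13), and *Tnfrsf21* at 23.3 ± 3.09 and 22.6 ± 2.59 CPM. Both had log2 fold changes within 0.03 of 0 and SEs of 0.06. *Tnfrsf18* (GITR, a receptor of regulatory T cells) had a log2 fold change of -0.58 ± 0.19 (SE) that did not pass. *Tnfrsf18* was called in 5 of 25 fits that left out 1 mouse (1, 6, 13, 22 or 25). It was also called in 3 of the 7 other settings that tested it, with sex as a term, with blocks of mouse numbers (which contain sex) as a term and in males alone. Its exons overlap by 27.2% with *Gm16008* on the opposite strand, and since it is not stated whether counting used the strand, reads of such overlapping genes cannot be told apart. *Tnfrsf14* (HVEM, -0.26 ± 0.15) and *Tnfrsf4* (OX40, -0.10 ± 0.20) did not pass.

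Of the remaining ligands, *Tnfsf9* (-0.10 ± 0.23), *Tnfsf13* (-0.25 ± 0.26) and *Tnfsf18* (-0.52 ± 0.27) did not pass, at group means between 0.175 and 0.344 CPM. *Tnfsf13* and *Tnfsf12* are neighbours on chromosome 11, and the read-through gene *Tnfsfm13* covers 60.0% of the exons of *Tnfsf13* and 48.2% of those of *Tnfsf12* on the same strand, so that their counts are uncertain. The antisense transcript *Tnfsf13os* was at 0.561 ± 0.130 CPM at rest (SD, n = 12) and 0.565 ± 0.156 CPM after exercise (SD, n = 13).

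Loss of *Dnmt3a* left no member past the threshold. edgeR called 0 of 23 members for genotype (0.269% of all genes), with 1 member under an unadjusted p of 0.05 and 0 calls by DESeq2. That member was *Tnfrsf21*, a death domain receptor, at 21.5 ± 1.67 CPM in WT (SD, n = 12) and 24.3 ± 3.02 CPM in mD3AKO mice (SD, n = 13), a log2 fold change of 0.17 (95% interval 0.05 to 0.30, adjusted p = 0.513). It was 0.19 without mouse 15 (adjusted p = 0.325) and 0.18 without mouse 19 (adjusted p = 0.584, edgeR). The log2 fold changes of the 23 members lay between -0.19 and 0.45. For *Tnfsf10* the interval was -0.09 to 0.25 (adjusted p = 0.995), and for the abundant *Tnfrsf12a* it was -0.32 to 1.04 (adjusted p = 0.979).

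Between the sexes edgeR also called 0 of 23 members (8.65% of all genes), with 4 members under an unadjusted p of 0.05, and DESeq2 called 1, *Tnfrsf11b*. Osteoprotegerin (*Tnfrsf11b*) was at 2.42 ± 0.943 CPM in males (SD, n = 13) and 3.35 ± 1.15 CPM in females (SD, n = 12), a log2 difference of male minus female of -0.48 (95% interval -0.82 to -0.14, adjusted p = 0.0738). *Tnfrsf18* differed by -0.51 (adjusted p = 0.0803) and *Tnfrsf1b* by 0.25 (adjusted p = 0.0957). All males held the middle mouse numbers and all females the numbers before or after, so sex and block of mouse numbers cannot be told apart here. The count was 1 without mouse 15 (*Tnfrsf1b*), without mouse 1 (*Tnfrsf18*) and without mouse 7 or mouse 13 (*Tnfrsf11b*). The response to exercise differed by sex in 0 of 23 members (0.0551% of all genes), with 0 under an unadjusted p of 0.05 and 0 calls by DESeq2. For *Tnfsf10* the difference was 0.06 (95% interval -0.30 to 0.43, adjusted p = 1).

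The wider pathway was examined in lists of family genes with other names and of signalling genes, 95 genes of which 87 were tested. Of these, 15 passed for exercise (17.2%, against 10.4% of all genes), 6 higher and 9 lower, and 0 passed for genotype or the interaction. The lists were chosen with earlier results of these data known, so nothing is read from their share for exercise. Over both genotypes *Tnf* fell, with a log2 fold change of -1.56 ± 0.36 (SE). It was at 0.117 to 0.797 CPM in rested mice (mean 0.367) and at 0 to 0.645 CPM in exercised mice (mean 0.135), with overlap between the groups. The mean went from 0.429 to 0.0779 CPM in WT mice and from 0.323 to 0.202 CPM in mD3AKO mice. These levels rest on 0 to 27 reads per library. Of the 7 such ligands 2 were tested, and *Lta*, *Ltb*, *Fasl*, *Cd40lg* and *Cd70* had on average 3 or fewer reads per library. *Fas*, a death domain receptor, rose by 0.64 ± 0.07 (SE) and was the only 1 of 8 tested receptors with other names to pass. It ranged from 4.54 to 8.00 CPM in rested mice and from 7.94 to 10.7 CPM in exercised mice.

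Of 15 tested adaptors and TRAF proteins 2 fell, *Traf4* (-0.42 ± 0.10) and *Traf3ip2* (-0.22 ± 0.07), and 0 rose. Of 12 death signalling genes 2 rose and 1 fell. Those that rose were *Ripk3*, a kinase of necroptosis (0.47 ± 0.14), and *Cflar*, which encodes the caspase-8 inhibitor cFLIP (0.17 ± 0.04). Of 13 NF-kB subunits and kinases 1 passed, *Tab1* (-0.24 ± 0.04).

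Of 11 genes of NF-kB inhibition 2 rose and 1 fell. *Nfkbia*, which encodes the inhibitor IκBα, rose by 0.74 ± 0.06 (SE), from a range of 21.8 to 32.2 CPM in rested mice to 37.2 to 55.1 CPM in exercised mice without overlap, and *Otulin*, a deubiquitinase, rose by 0.34 ± 0.09. *Tnfaip3*, which encodes the deubiquitinase A20, fell by 0.84 on the log2 scale (SE 0.12), from 4.62 to 8.37 CPM in rested mice to 2.09 to 5.46 CPM in exercised mice. Of 13 tested NF-kB target genes, the chemokine gene *Cxcl10* rose (1.30 ± 0.42) and the endothelial adhesion gene *Selp* fell (-1.12 ± 0.17). *Cxcl10* was at 0.0293 to 0.562 CPM in rested mice (median 0.178) and at 0.181 to 1.83 CPM in exercised mice (median 0.275). Its levels overlapped and rest on 1 to 54 reads per library. In WT mice alone 0 of these target genes were called higher, and in mD3AKO mice alone 0. Of 13 interferon response genes, to which *Tnfsf10* is known to belong in other cells, *Rsad2* (-0.77 ± 0.14), an antiviral gene, and *Gbp2* (-0.43 ± 0.07) fell and 0 rose.

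**Figure D5:**
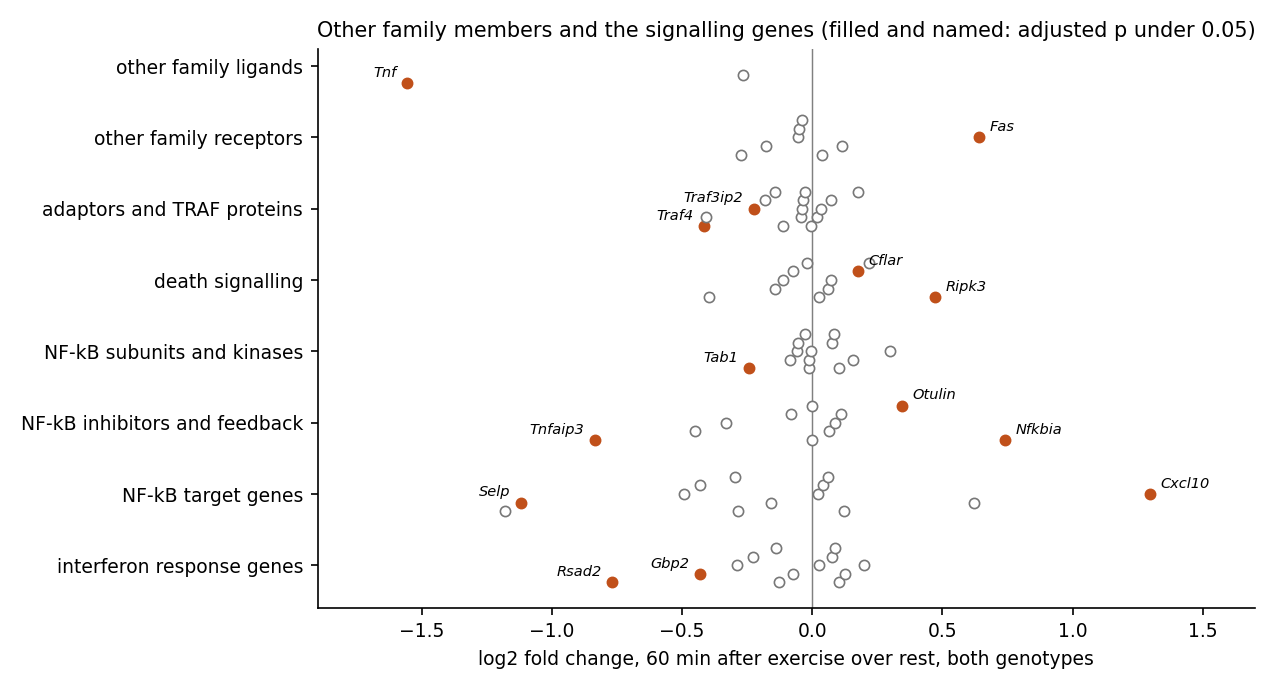
Log2 fold change after exercise over both genotypes of the tested genes of 8 lists, except 1 gene that is not drawn (vertical position within a list carries no value). Filled points with names passed an adjusted p under 0.05, among them *Tnf* at -1.56 and *Tnfaip3* at -0.84 on the left and *Fas* at 0.64 and *Nfkbia* at 0.74 on the right.

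Markers of other cells of the muscle were examined beside the members (10.4% of all genes passed for exercise). Of 14 endothelial markers 6 were lower, led by *Cldn5* (-0.59 ± 0.13), *Kdr* (-0.58 ± 0.07) and *Egfl7* (-0.44 ± 0.08), and 2 were higher, *Sox17* (0.77 ± 0.10) and *Esam* (0.31 ± 0.06). Their median was -0.16, and their summed level ranged from 577 to 752 CPM at rest and from 500 to 647 CPM after exercise. Of 17 immune cell markers 8 were tested and 1 was lower, the neutrophil gene *S100a9* (-1.28 ± 0.41). The median of the immune markers was -0.28, and their sum ranged from 30.98 to 94.9 CPM at rest and from 19.0 to 94.3 CPM after exercise, and *Cd3e*, *Cd3g*, *Cd8a*, *Nkg7* and *Klrb1c* had on average 3 or fewer reads per library.

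Of the 6 satellite cell markers, *Sdc4* was higher (0.93 ± 0.08) and *Pax7* (-0.45 ± 0.10) and *Myf5* (-0.46 ± 0.09) were lower, their sum being 77.1 to 125 CPM at rest and 116 to 183 CPM after exercise. Of 7 tested fibroblast, 6 adipocyte, 6 Schwann cell and 8 muscle fiber markers 0 passed, with medians of -0.37, 0.17, 0.12 and 0.02 in that order, and the median of the satellite cell markers was -0.10. The sum was 1131 to 5526 CPM at rest and 1248 to 2982 CPM after exercise for fibroblasts, 33.6 to 529 and 48.0 to 561 CPM for adipocytes, and 67.0 to 656 and 72.8 to 427 CPM for Schwann cells. The part of each cell type in the values of the members was not tested.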

How the data were processed

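RNA of 25 *soleus* muscles was sequenced after depletion of ribosomal RNA (stranded libraries, paired ends). The authors counted reads per gene on mm10 with GENCODE annotation, and the deposited values are whole counts without normalization or filter. The submitters' processing notes name FastQC 0.11.5, STAR 2.5.3a and featureCounts 1.5.3. Whether counting used the strand is not given in the sources used here. The exon length of each gene is another deposited column. Groups came from the sample labels, and 0 columns belonged to other samples. Symbols were matched through GENCODE for 52403 of 52636 genes.

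Genes were kept by filterByExpr (minimum count 10, minimum total 15, 4 groups), which left 16340, and tested with edgeR 4.0.16 (limma 3.58.1, R 4.3.3), TMM and 1 mean per group, without a term for sex. For sex, a mean was fitted for each of 8 combinations of sex, genotype and exercise. P-values were adjusted by Benjamini-Hochberg over all tested genes, with calls at an adjusted p under 0.05. SE is the log2 fold change over the square root of F. CPM used TMM library sizes. The mice are separate animals, and reads were counted without molecular identifiers. The code was tested on simulated data, and nothing in the text rests on that test. Motifs were searched in RefSeq windows of 250 bases, and words of 31 bases in GENCODE transcripts.

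The members, gene lists and motifs were chosen with earlier results of these data known. Values by group are given for members called in any contrast and for the 5 ligands and 5 receptors of highest level per length. Up to 4 called genes of each list are named, and genes named beyond this were chosen after their values were seen. 2 genes of the lists enter the counts but are not reported here by name. Alternatives were DESeq2 1.42.0, library totals without TMM, other filters, sex or blocks of mouse numbers as a term, each sex alone and leaving out each mouse. The middle block of mouse numbers held all males and no females, so the term for blocks contains that for sex.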

Additional observations from a re-analysis of the deposited data

Results flagged for a closer look

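In groups of 5 to 7 mice, a mouse was marked where its distance to the nearest other mouse was a large share of the range of its group (Dixon's 95% limit). Chance marks about 1 in 20 groups where values follow a normal distribution. Marks fell on 8 of 92 groups of tested members (8.7%), in 6 members, each time for the highest mouse. The limit was applied to CPM without a log scale, and the groups of different members share the same mice, so nothing is read from this share.

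Mouse 19, an exercised mD3AKO male, was marked in *Tnfrsf1a* (37.9 CPM, against 23.5 to 26.2 CPM in the others), in *Tnfrsf10b* (2.34 CPM, against 0.935 to 1.31 CPM) and in *Tnfrsf23* (3.46 CPM, against 1.4 to 1.99 CPM). Its summed immune cell markers were 94.3 CPM, against 19.0 to 59.2 CPM in the others. It was also above the others for the receptors with other names (157 CPM, against 81.4 to 89.1 CPM), the interferon response genes (95.6 CPM, against 61.4 to 75.4 CPM) the genes of NF-kB inhibition (274 CPM, against 203 to 235 CPM), the adaptors and TRAF proteins (229 CPM, against 184 to 203 CPM), the NF-kB subunits and kinases (412 CPM, against 349 to 389 CPM) and the death signalling genes (195 CPM, against 178 to 194 CPM), and the part of any of these in its values was not tested. *Tnfrsf23* was also marked in mouse 7, a rested mD3AKO male (2.55 CPM, against 0.656 to 1.38 CPM), whose summed immune cell markers were 94.9 CPM. Mouse 7 also had the highest fibroblast marker sum of the 25 libraries, 5526 CPM against 3709 CPM in the next, and the highest sum of the receptors with other names among rested mice, 107 CPM, and the part of these in its values was not tested.

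*Tnfrsf12a* was marked in 2 females, mouse 22 of the exercised WT group (129 CPM, against 24.7 to 67.7 CPM) and mouse 2 of the rested mD3AKO group (103 CPM, against 18.4 to 46.7 CPM). *Tnfrsf11b* was marked in mouse 5 (3.62 CPM, against 1.78 to 2.42 CPM) and *Tnfrsf14* in mouse 25 (1.56 CPM, against 0.846 to 1.12 CPM), both exercised WT females. In the exercised WT group, mouse 5 had the highest summed fibroblast markers (2982 CPM) and immune cell markers (61.7 CPM). Mouse 25 had the highest adipocyte marker sum of that group (561 CPM) and mouse 22 the highest Schwann cell marker sum (427 CPM). The part of these in their values was not tested. Mouse 15 was marked in 0 of these groups.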

How the results depend on the processing

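Counts of called members are given with the percentage of all tested genes called in the same setting, which also moved. Called members kept their direction in each setting run. Among members that did not pass for exercise, the sign changed for *Tnfrsf10b* (0.03, against -0.11 in females alone and -0.0074 without TMM), *Tnfsf9* (-0.10, against 0.04 in males alone), *Tnfsf13os* (-0.01, against 0.17 in females alone) and *Tnfrsf21* (-0.03, against 0.01 in females alone) in the 5 settings in which the tested members were compared (*Tnfrsf4* was not tested in males alone). *Tnfsf10* was called after exercise in 25 of 25 fits that left out 1 mouse and in 8 of 8 other settings, and *Tnfrsf25* in 25 of 25 and 6 of 8. *Tnfrsf26* and *Tnfsf13b* were each called in 25 of 25 and in 6 of the 7 other settings that tested them. *Tnfrsf11a* was called in 6 of 25 and 2 of 8. The count for exercise was 4 to 6 when 1 mouse was left out (9.32% to 11.1%), 3 where at least 1 CPM in 5 libraries was required (13 members tested, 11.3%) and 2 in females alone (3.03%). In males alone it was 4 (6.01%), *Tnfrsf12a* and *Tnfrsf18* among them. With sex as a term (11.9%) or blocks of mouse numbers, which contain sex, as a term (12.5%) it was 6, with *Tnfrsf18* and *Tnfrsf1b* added and *Tnfrsf11a* lost. In WT mice it was 1 to 2 when 1 mouse was left out (2.7% to 3.78%), and 2 with sex as a term (4.22%), with the blocks (4.85%) and in males alone (1.29%), with *Tnfrsf18* added each time. In mD3AKO mice it was 3 to 6 when 1 mouse was left out (4.57% to 6.55%), 3 without TMM (2.96%), 3 with the stricter filter (6.78%), 3 in males alone (3.92%) and 1 in females alone (1.09%). The count for sex was 0 to 1 when 1 mouse was left out (1 without mouse 1, 7, 13 or 15; 5.24% to 10.9%) and 1 with DESeq2 (10.7%). Counts for genotype, the interaction and sex by exercise were 0 in each setting run. Each sex alone has fewer mice, and leaving out a rested WT female leaves 1 mouse in its group, assumed to vary like the others. No paired analysis was possible because the mouse numbers differ between groups. Members under about 1 CPM rest on some 30 reads or fewer per library, which limits their precision.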
